A study of Mus musculus with 6 samples.

Results

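Type I interferon response genes were examined in mouse liver: 35 listed genes that interferon alpha and beta induce or that carry the signal, without the Ifi200, guanylate-binding protein and immunity-related GTPase families. A gene was represented by the probe set with exactly 1 gene symbol and the highest mean over all arrays, which gave values for 32 of the 35 among 22180 genes on the array. Tmem173 was found under its newer symbol Sting1. Oas1a and Ifi27l2a lie on probe sets shared with Oas1g and Ifi27l2b, and Ifi44 is unnamed here, so these 3 genes carry no value of their own in the comparison.

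The liver of 6 mice was profiled with 1 whole-transcript array per mouse. The 3 ErbB4-/- mice lack the receptor tyrosine kinase ErbB4 throughout the body except for a transgene that expresses it in the heart (ErbB4-/-HER4heart), which rescues them from death as embryos, and the line was backcrossed to C57BL/6J. The 3 control mice were wild-type C57BL/6J. Every mouse of both groups had received DEN, understood here as the liver carcinogen diethylnitrosamine, as 1 dose on postnatal day 14, so no liver without carcinogen stands beside them. The protocol gives dissection after 32 weeks for all mice, whereas the treatment characteristic gives 35, 36 and 37 weeks for ErbB4-/- replicates 1 to 3 and 32, 33 and 34 weeks for control replicates 1 to 3. If the characteristic is right, age and genotype cannot be told apart. Nor can the lost receptor, the heart transgene and other features of the mutant line be separated in this design.

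Values are log2 signals, comparable between arrays for 1 gene but not between genes. Array medians lay between 4.83 and 4.86. Hepatocyte markers were bright on every array, with list means of 13.56 to 13.61 in ErbB4-/- and 13.62 to 13.70 in control liver (7 of 8 listed genes measured). Erbb4 itself measured 4.75, 5.36 and 5.61 in ErbB4-/- replicates 1 to 3, against 5.42, 5.73 and 5.42 in control replicates 1 to 3, which overlap, and the part of the transcript that its probe set reads was not examined here. Xist was low and Eif2s3y high on all 6 arrays. Control replicate 1 stood apart in male-type liver genes, with Hsd3b5 at 2.52 where the other 5 arrays had 8.70 to 9.88. ErbB4-/- replicate 3 lay farthest from the other arrays of its group on the first principal component.

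Type I interferons bind a receptor made of Ifnar1 and Ifnar2, whose kinases Jak1 and Tyk2 phosphorylate Stat2. Stat2 acts with Irf9 in the complex ISGF3, which binds the interferon-stimulated response element (ISRE) in the promoters of target genes. The targets include nucleic acid sensors, antiviral effectors, and Irf7 and Irf9 themselves, so that the response feeds back on its own machinery. In liver, hepatocytes and Kupffer cells both respond, and Usp18 is known there for limiting the response.

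The promoters of the members give the sequence side of this pathway. Windows from 250 bases before to 50 bases after an annotated start were taken from RefSeq (build GRCm38.p6) and were found for 25 of the 35 members, in 31 windows. The ISRE core GAAANNGAAA was searched on both strands and was found in 11 of these 25 members, against 3.99% of all 27025 genes with such windows and 3.44% of all 32851 windows of the same length. Stretches from 6 of these members are printed to show where the core sits and how it is repeated: the members with a core that had the largest differences between the groups. Each is the 250 bases before the start, 5′ to 3′ along the transcribed strand, with every match to the core in either direction in capitals.
Ifit1 (chr19:34640639-34640888, plus strand): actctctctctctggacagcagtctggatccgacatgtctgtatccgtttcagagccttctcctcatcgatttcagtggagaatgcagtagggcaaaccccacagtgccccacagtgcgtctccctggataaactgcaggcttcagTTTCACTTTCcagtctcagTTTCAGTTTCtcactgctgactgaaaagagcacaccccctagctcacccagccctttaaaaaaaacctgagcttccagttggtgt
Rsad2 (chr12:26456453-26456702, minus strand): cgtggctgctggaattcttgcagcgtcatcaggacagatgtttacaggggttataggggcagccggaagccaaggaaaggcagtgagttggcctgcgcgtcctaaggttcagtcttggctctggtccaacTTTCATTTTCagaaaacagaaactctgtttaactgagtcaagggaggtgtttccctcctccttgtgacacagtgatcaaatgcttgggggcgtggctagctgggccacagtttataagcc
Bst2 (chr8:71537473-71537722, minus strand): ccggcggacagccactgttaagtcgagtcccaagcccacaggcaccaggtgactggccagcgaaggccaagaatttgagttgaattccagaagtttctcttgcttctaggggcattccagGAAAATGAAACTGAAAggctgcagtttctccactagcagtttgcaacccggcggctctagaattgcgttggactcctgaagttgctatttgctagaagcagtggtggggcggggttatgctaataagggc
Ifit3 (chr19:34583279-34583528, plus strand): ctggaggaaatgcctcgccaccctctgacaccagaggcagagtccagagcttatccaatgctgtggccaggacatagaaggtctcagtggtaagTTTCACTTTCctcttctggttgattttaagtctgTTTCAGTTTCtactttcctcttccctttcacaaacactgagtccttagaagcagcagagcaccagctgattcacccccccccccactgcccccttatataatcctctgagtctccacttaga
Stat2 (chr10:128270248-128270497, plus strand): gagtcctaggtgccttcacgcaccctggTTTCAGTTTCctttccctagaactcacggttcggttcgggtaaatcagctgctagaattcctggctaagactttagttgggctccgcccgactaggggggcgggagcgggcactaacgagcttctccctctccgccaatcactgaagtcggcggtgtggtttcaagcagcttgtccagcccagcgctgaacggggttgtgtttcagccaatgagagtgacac
Isg15 (chr4:156200819-156201068, minus strand): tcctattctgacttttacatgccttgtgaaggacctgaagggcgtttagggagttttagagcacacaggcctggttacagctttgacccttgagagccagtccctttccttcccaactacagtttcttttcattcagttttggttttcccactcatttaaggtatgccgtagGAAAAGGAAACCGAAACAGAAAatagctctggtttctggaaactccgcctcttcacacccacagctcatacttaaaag

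In Isg15 3 cores overlap in a run between 78 and 57 bases before the start. Ifit1 and Ifit3, members of the same family on chromosome 19, each carry 2 separate cores, and both genes have the core in the reverse direction. Bst2 has 2 overlapping cores, and Rsad2 and Stat2 have 1 each. The remaining members with a core were Ddx58, Ifih1, Oas1a, Oas3 and Eif2ak2. The gamma-activated sequence TTCNNNGAA, an element of interferon gamma responses, was found in 10 of 25 members, against 9.55% of all genes with windows; it overlaps a core in the Bst2 window, and 3 members had both motifs. A match is a description of the letters in these windows and shows no binding.

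Whether the response differs between the genotypes was asked by setting ErbB4-/- against control liver. No member passed the test, and no member reached an unadjusted p under 0.05 (limma, Benjamini-Hochberg over 22180 genes, adjusted p from 0.76 to 0.992). In the same fit 0.00451% of all genes (1 gene) passed and 5.72% had an unadjusted p under 0.05. No member had groups without overlap, against 8.33% of all genes. Of the 32 measured members 24 had a higher and 8 a lower mean in ErbB4-/- liver, where 55.1% of all genes were higher. The median difference was 0.06 on the log2 scale, against 0.02 over all genes, and the range was -0.40 (Tmem173) to 0.40 (Mx2). The 95% interval of the difference lay within a 2-fold change for 30 of 32 members, and for Usp18 and Ifit1 it reached past 2-fold in the direction of higher values in ErbB4-/- liver. It lay within 0.5 log2 units for 20 members.

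**Figure D1:**
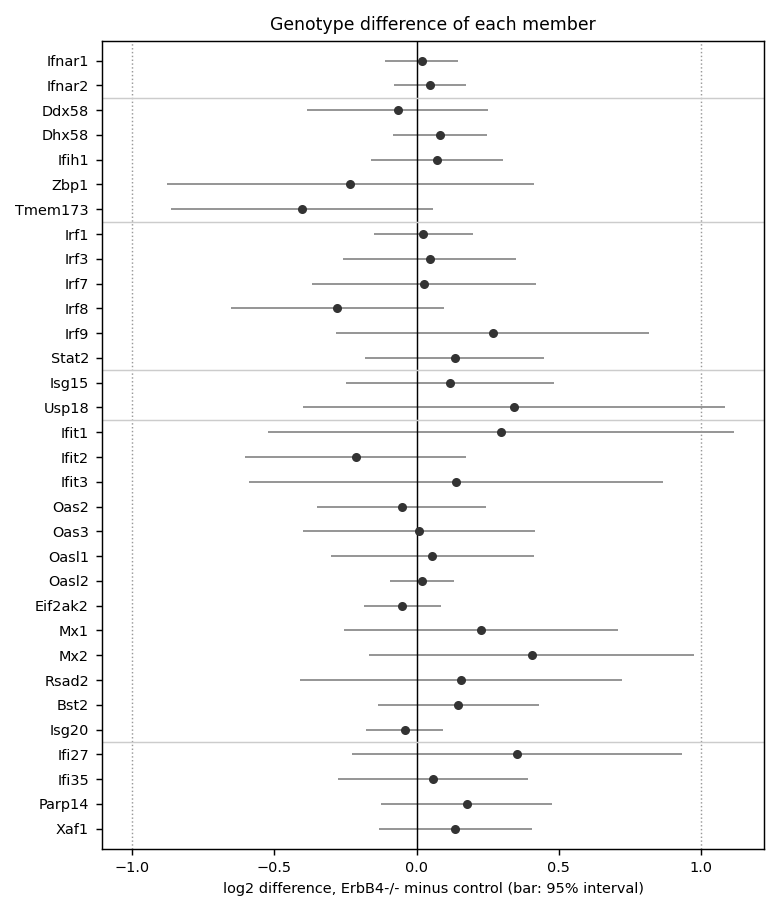
Log2 difference of each of the 32 measured members, ErbB4-/- minus control (3 arrays each), with its 95% interval from limma. Horizontal lines separate the roles from receptors at the top to other interferon-stimulated genes at the bottom, and dotted lines mark a 2-fold change. Every interval includes 0, the receptors are among the narrow ones, and Usp18 and Ifit1 are the members whose intervals pass 2-fold.

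The receptor chains were nearly constant. Ifnar1, the chain that carries Tyk2, measured 9.13, 9.13 and 9.09 in ErbB4-/- replicates 1 to 3, against 9.13, 9.03 and 9.14 in control replicates 1 to 3. The difference was 0.02 with a standard error of 0.05 (limma, adjusted p = 0.923) and an interval of -0.11 to 0.15. Ifnar2, the chain that binds the ligand most tightly, measured 10.21, 10.18 and 10.18 in ErbB4-/- replicates 1 to 3, against 10.17, 10.08 and 10.18 in control replicates 1 to 3. Its difference was 0.05 with a standard error of 0.05 (limma, adjusted p = 0.798), and its interval ran from -0.08 to 0.17. For both genes the 6 mice lay within 0.13 log2 units or less of each other, and the groups overlapped. Each gene had only 4 different values on the 6 arrays, so the spread between mice cannot be read in full from them.

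The 5 nucleic acid sensors and adaptors had no common direction, with 2 higher and 3 lower in ErbB4-/- liver. Tmem173, the adaptor STING that relays cytosolic DNA sensing, measured 4.92, 4.91 and 4.37 in ErbB4-/- replicates 1 to 3, against 5.31, 4.92 and 5.17 in control replicates 1 to 3. Low values came from ErbB4-/- replicate 3, and control replicate 2 lay with the other ErbB4-/- mice. The difference was -0.40 with a standard error of 0.18 (limma, adjusted p = 0.76), the lowest of all members, and it was -0.22 without ErbB4-/- replicate 3. Zbp1, a sensor of Z-form nucleic acid that triggers necroptosis, averaged 7.27 ± 0.19 in ErbB4-/- and 7.50 ± 0.49 in control liver (SD, n = 3 each), and its difference of -0.23 became 0.02 without control replicate 1, which held the highest value at 8.01. The RNA helicases Ddx58 (RIG-I) and Ifih1 (MDA5), which sense viral RNA, differed by -0.07 and 0.07, and their regulator Dhx58 (LGP2) by 0.08. Ifih1 and Dhx58 had their highest value in ErbB4-/- replicate 3 and their lowest in control replicate 3.

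Among the 6 transcription factors the ISGF3 subunits and the lineage factor Irf8 had differences of opposite sign. Irf9, the DNA-binding subunit of ISGF3, measured 7.62, 7.53 and 8.22 in ErbB4-/- replicates 1 to 3, against 7.70, 7.62 and 7.25 in control replicates 1 to 3. Its high value was ErbB4-/- replicate 3 and its low value control replicate 3, with the other 4 mice between 7.53 and 7.70, and the difference of 0.27 with a standard error of 0.22 (limma, adjusted p = 0.771) was 0.05 without ErbB4-/- replicate 3. Stat2, its partner, measured 8.45, 8.24 and 8.51 in ErbB4-/- replicates 1 to 3, against 8.24, 8.48 and 8.08 in control replicates 1 to 3. The groups overlapped, and the difference was 0.14 with a standard error of 0.13 (limma, adjusted p = 0.777). Irf7, the factor that amplifies interferon alpha production, measured 8.33, 8.01 and 8.33 in ErbB4-/- replicates 1 to 3, against 8.36, 8.33 and 7.90 in control replicates 1 to 3. Of these, ErbB4-/- replicate 2 and control replicate 3 were the low mice, and the difference was 0.03 with a standard error of 0.16 (limma, adjusted p = 0.968). Irf3, the constitutive factor that starts interferon beta transcription, differed by 0.05, and Irf1, a factor induced by interferon gamma, by 0.02.

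Irf8, a factor of macrophage and dendritic cell development, measured 5.48, 5.72 and 5.13 in ErbB4-/- replicates 1 to 3, against 5.72, 5.72 and 5.72 in control replicates 1 to 3. ErbB4-/- replicates 1 and 3 lay below a value that the other 4 arrays shared, and the difference was -0.28 with a standard error of 0.15 (limma, adjusted p = 0.76). Without ErbB4-/- replicate 2, which had the control value, it was -0.42 at an unadjusted p of 0.02 (limma). In that setting Irf8 was the 1 member of 32 under 0.05, against 6.09% of all genes. Without ErbB4-/- replicate 3 the difference was -0.12. Values that repeat exactly between arrays occurred in 16 of the 32 members and in 57.5% of all genes. In Irf8 only 3 different values stood on the 6 arrays, and an SD between mice cannot be read from the equal control values.

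The ISG15 system comprises Isg15, a ubiquitin-like modifier, and Usp18, which removes it from proteins and blocks the receptor. Usp18 measured 7.85, 7.83 and 8.52 in ErbB4-/- replicates 1 to 3, against 8.02, 7.95 and 7.20 in control replicates 1 to 3. ErbB4-/- replicate 3 was highest and control replicate 3 lowest, and the remaining 4 mice of both groups lay between 7.83 and 8.02. Its difference was 0.34 with a standard error of 0.30 (limma, adjusted p = 0.776), and 0.08 without control replicate 3. Isg15 measured 7.46, 7.51 and 7.71 in ErbB4-/- replicates 1 to 3, against 7.55, 7.63 and 7.15 in control replicates 1 to 3, with the same 2 mice at the ends of the range. The difference was 0.12 with a standard error of 0.15 (limma, adjusted p = 0.82) and was -0.03 without control replicate 3.

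Of the 13 measured antiviral effectors 9 were higher and 4 lower in ErbB4-/- liver, with a median difference of 0.06. Mx2, a dynamin-like antiviral GTPase, measured 6.94, 6.60 and 7.28 in ErbB4-/- replicates 1 to 3, against 6.19, 6.61 and 6.81 in control replicates 1 to 3. The groups overlapped in ErbB4-/- replicate 2 and control replicates 2 and 3, and the difference was 0.40 with a standard error of 0.23 (limma, adjusted p = 0.76). Its paralog Mx1, which is known to be disrupted by a deletion in C57BL/6 mice, was dim at 3.66, 3.74 and 4.35 in ErbB4-/- liver and 3.74, 3.74 and 3.59 in control liver. The difference of 0.23 was 0.01 without ErbB4-/- replicate 3.

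The Ifit genes encode proteins that bind foreign RNA. Ifit1, whose promoter with 2 separate cores is printed above, measured 7.04, 7.31 and 8.02 in ErbB4-/- replicates 1 to 3, against 7.31, 7.50 and 6.66 in control replicates 1 to 3. The highest and the lowest mouse were again ErbB4-/- replicate 3 and control replicate 3, 1.36 log2 units apart. The difference between the genotypes was 0.30 with a standard error of 0.33 (limma, adjusted p = 0.803), and 0.02 without ErbB4-/- replicate 3. Ifit3 measured 6.21, 6.66 and 7.33 in ErbB4-/- replicates 1 to 3, against 6.63, 6.77 and 6.39 in control replicates 1 to 3, and its difference of 0.14 turned to -0.16 without ErbB4-/- replicate 3. Ifit2 had a difference of the opposite sign, with 5.34 ± 0.15 in ErbB4-/- and 5.56 ± 0.27 in control liver (SD, n = 3 each) and a value of -0.21. Neither of its promoter windows holds a core, and a link between the core and the sign was not tested.

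The oligoadenylate synthetases, which activate RNase L, their relatives, and the kinase Eif2ak2 (PKR), which stops translation, differed little. Oas2 differed by -0.05, Oas3 by 0.01, Oasl1 by 0.06, Oasl2 by 0.02 and Eif2ak2 by -0.05 on the log2 scale. The virus-restricting genes were Rsad2 (viperin) with 0.16, Bst2 (tetherin) with 0.15 and the exonuclease gene Isg20 with -0.04. Bst2 had its highest value, 10.39, in ErbB4-/- replicate 3, and Rsad2 did not: its lowest mouse was control replicate 1 at 6.12. For Oasl2 and Isg20 only 2 different values stood on the 6 arrays.

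All 4 measured members of the remaining group were higher in ErbB4-/- liver, with a median difference of 0.16. Ifi27, a mitochondrial protein gene strongly induced by interferon alpha, measured 9.53, 9.45 and 9.96 in ErbB4-/- replicates 1 to 3, against 9.0, 9.72 and 9.14 in control replicates 1 to 3. Control replicates 1 and 3 were low and control replicate 2 lay among the ErbB4-/- mice. The difference was 0.35 with a standard error of 0.23 (limma, adjusted p = 0.76). Without control replicate 2 it was 0.57 at an unadjusted p of 0.0307 (limma). In that setting Ifi27 was the only member under 0.05, against 5.37% of all genes. Without ErbB4-/- replicate 3 the difference was 0.20. Parp14, an ADP-ribosyltransferase, differed by 0.18, Xaf1, a pro-apoptotic protein gene, by 0.14, and Ifi35, which encodes a leucine zipper protein, by 0.06.

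**Figure D2:**
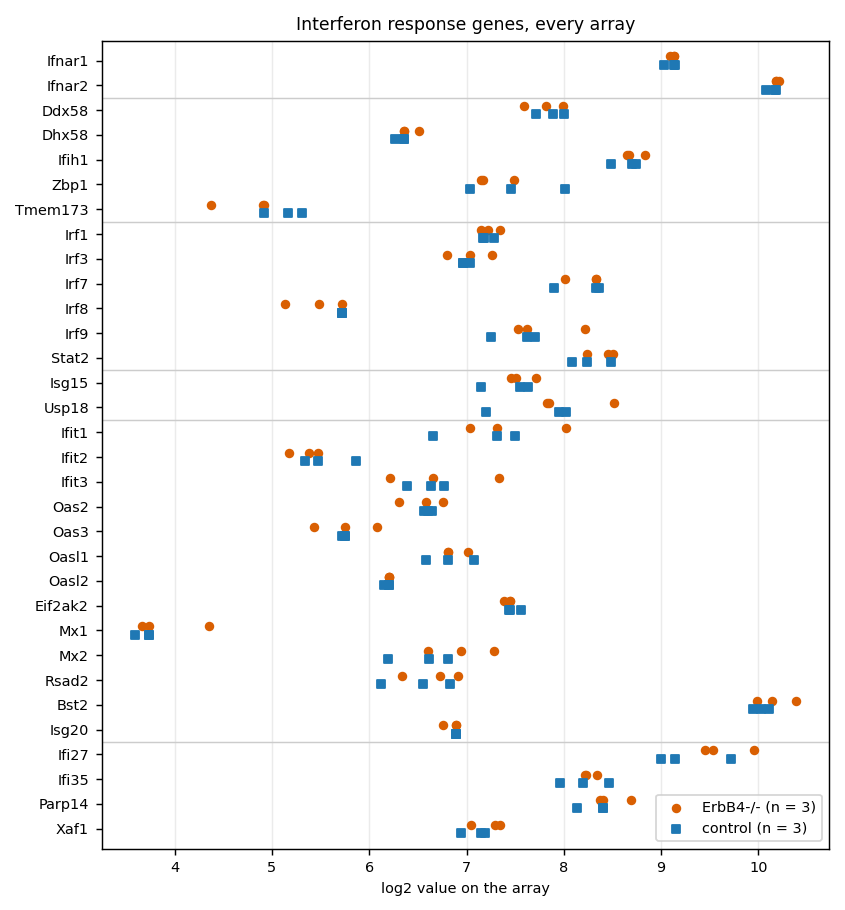
Log2 value of each measured member on every array, with ErbB4-/- mice as circles above and control mice as squares below on each row, and lines between the roles. The 3 ErbB4-/- and 3 control values overlap or touch on every row, and single mice such as the highest ErbB4-/- and the lowest control mouse of Usp18 and Ifit1 lie apart from the rest.

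The inducible members varied between mice of the same genotype, and 2 mice stood at the ends of many of them. ErbB4-/- replicate 3 held the single highest value of 15 of the 32 members, against 23.6% of all genes. Control replicate 3 held the single lowest value of 13 members, against 16.6% of all genes. Both held for 10 members, which were Dhx58, Ifih1, Irf9, Stat2, Isg15, Usp18, Ifit1, Mx1, Parp14 and Xaf1, and for 5.07% of all genes. The pathway list described below holds 31 further measured interferon-stimulated genes outside the members. ErbB4-/- replicate 3 held the single highest value of 8 of them (25.8%) and the single lowest of 6 (19.4%). The shares of all genes were 23.6% and 20.0%. Control replicate 3 held the single lowest value of 15 of the 31 and the single highest of 5. These 2 mice were singled out after their values were seen, so the counts are a description, with no test. The gap between them, ErbB4-/- replicate 3 minus control replicate 3, was 1.36 for Ifit1, 1.33 for Usp18, 0.97 for Irf9 and 0.94 for Ifit3, and it ran the opposite way for Tmem173 at -0.80, Irf8 at -0.59 and Ifit2 at -0.29.

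The mean over all 32 members on each array was 7.25, 7.27 and 7.46 in ErbB4-/- replicates 1 to 3 and 7.28, 7.36 and 7.16 in control replicates 1 to 3. The remaining mice of both groups lay between the 2 ends, and the median member difference was 0.02 without ErbB4-/- replicate 3 and 0.04 without control replicate 3. The members had a median range over the 6 arrays of 0.50 and a median SD within groups of 0.19, against 0.38 and 0.13 over all genes, with no matching for signal level.

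**Figure D3:**
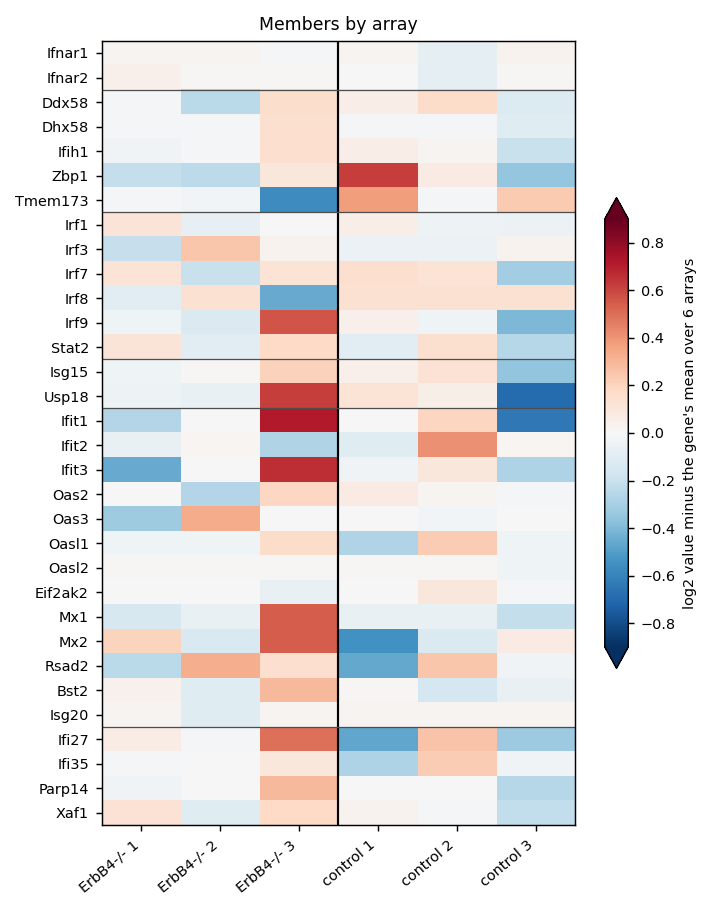
Deviation of each measured member (rows, by role) from its own mean over the 6 arrays, in log2 units, with ErbB4-/- replicates 1 to 3 on the left and control replicates 1 to 3 on the right of the line. Red marks a value above and blue below the mean. The column of ErbB4-/- replicate 3 is red for 15 members that have their highest value there. Tmem173, Irf8 and Ifit2 are among those in blue there, and control replicate 3 is blue for most of the rows of the 15 members.

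The members with an ISRE core in a promoter window were set beside those without. The 10 measured members with a core had a median difference of 0.13, 8 of them were higher in ErbB4-/- liver, and 6 had their highest value in ErbB4-/- replicate 3. The 13 measured members without a core had a median difference of 0.03, 10 of them were higher, and 2 had their highest value in ErbB4-/- replicate 3. Control replicate 3 held the lowest value of 4 members in each set. The difference between the sets was not tested, and the 9 measured members with no window here, Usp18, Mx1 and Parp14 among them, belong to neither.

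Macrophage and endothelial markers had their extremes in the same 2 mice. The mean of the 14 Kupffer cell and macrophage markers was 8.29, 8.0 and 7.52 in ErbB4-/- replicates 1 to 3 and 8.64, 8.70 and 8.91 in control replicates 1 to 3. All 14 were lower in ErbB4-/- liver and none passed (limma, adjusted p from 0.76 to 0.762). An unadjusted p under 0.05 (limma) was found for 11 of them, against 5.72% of all genes. The 14 markers varied together within the groups (mean pairwise correlation of 0.457), so these are not 11 separate results. The 6 endothelial markers averaged 8.47, 7.95 and 7.20 in ErbB4-/- liver and 8.52, 8.83 and 8.98 in control liver. ErbB4-/- replicate 3, with the highest mean of the members, had the lowest means of the macrophage and endothelial markers. Of the 14 macrophage markers 12 were lowest there, whereas Lyz2 at 9.46 and Mpeg1 at 9.84 were highest of their group there. The 4 members with their lowest value in this mouse were Tmem173, Irf8, Ifit2 and Eif2ak2. In bulk tissue fewer cells of a type and less RNA per cell cannot be told apart, and the part of these cells in the members' values was not tested.

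Neutrophil and monocyte markers had another order of mice. All 8 neutrophil and all 5 monocyte markers were also lower in ErbB4-/- liver, and none passed. The median difference was -1.654 for the neutrophil and -0.695 for the monocyte markers, against -0.71 for the macrophage markers. Groups did not overlap for 6 neutrophil and 3 monocyte markers, against 8.33% of all genes. The 8 neutrophil markers had means of 4.57, 4.67 and 5.0 in ErbB4-/- replicates 1 to 3 and 7.14, 5.33 and 6.88 in control replicates 1 to 3, and the 5 monocyte markers had 6.66, 6.60 and 6.75 in ErbB4-/- and 8.13, 7.08 and 7.60 in control replicates 1 to 3. In both lists ErbB4-/- replicate 3 was the highest mouse of its group, and control replicate 1 was the highest of all. Plasmacytoid dendritic cells, the main producers of interferon alpha, had list means of 4.62 to 4.74 in ErbB4-/- liver and 4.62 to 4.70 in control liver over 7 markers, with their marker Siglech at 4.77, 4.77 and 4.67 in ErbB4-/- liver and 4.62, 4.99 and 4.84 in control liver. Conventional dendritic cell markers (5 of 6 measured) had means of 5.44 to 5.54 in ErbB4-/- and 5.38 to 5.57 in control liver, T and NK cell markers (9) 4.47 to 4.51 in ErbB4-/- and 4.46 to 4.63 in control liver, and B cell markers (4 of 5 measured) 4.67 to 4.84 in ErbB4-/- and 4.78 to 4.81 in control liver. A list mean can hide a bright gene, such as the dendritic cell marker Cd209a at 8.56, 8.90 and 9.04 in ErbB4-/- liver and 8.70, 9.09 and 8.37 in control liver.

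**Figure D4:**
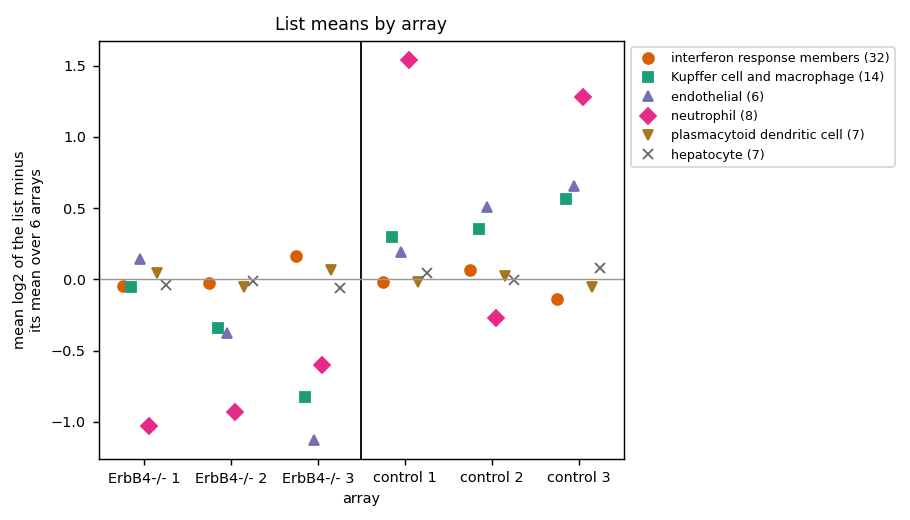
Mean log2 value of each list on each array minus the list's mean over the 6 arrays, for the interferon response members and 5 lists of cell type markers (number of genes measured in brackets), with ErbB4-/- replicates on the left and control replicates on the right of the line. The interferon members have their highest point in ErbB4-/- replicate 3, where the macrophage and endothelial lists have their lowest, and their lowest in control replicate 3, where these lists have their highest.

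Other genes of the pathway gave a wider view, from a list of 60 with 53 measured. None passed, 5 had an unadjusted p under 0.05 and 4 had groups without overlap, against 5.72% and 8.33% of all genes. Those without overlap were Ifngr1, Jak1 and Sp100, which were lower in ErbB4-/- liver, and the dim Ifi44l, which was higher by 0.35. The direction was split, with 26 higher and 27 lower in ErbB4-/- liver and a median difference of 0.00. Ifngr1, the ligand-binding chain of the interferon gamma receptor, measured 8.54, 8.23 and 7.57 in ErbB4-/- replicates 1 to 3, against 8.81, 8.67 and 8.91 in control replicates 1 to 3. Every ErbB4-/- mouse lay below every control mouse, and the difference was -0.69 with a standard error of 0.25 (limma, adjusted p = 0.76). Its lowest mouse, ErbB4-/- replicate 3, and its highest, control replicate 3, were those at the ends of the macrophage markers.

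The other 4 genes with the smallest unadjusted p were also lower in ErbB4-/- liver and did not pass (limma, adjusted p = 0.76). Sp100, a component of nuclear bodies, measured 7.29, 7.25 and 7.07 in ErbB4-/- liver and 7.45, 7.41 and 7.48 in control liver, with no overlap and a difference of -0.24. These values are from the brightest of its 4 probe sets, and the others are not shown. Apobec3, a cytidine deaminase that restricts retroviruses, differed by -0.25, Samhd1, which depletes deoxynucleotides, by -0.20, and the interferon gene Ifna4 by -0.23. Interferon genes have close paralogs, so the source of the Ifna4 signal is uncertain. Ifnb1, the interferon beta gene, was dim, at 3.90 ± 0.15 in ErbB4-/- and 3.75 ± 0.14 in control liver (SD, n = 3 each), a difference of 0.15. The receptor kinases Jak1 and Tyk2 differed by -0.09 and 0.01.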

How the data were processed

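The deposited table holds log2 values, 1 per probe set and array, made by the authors from whole-transcript arrays. Trizol was used to extract the RNA, and Affymetrix kits amplified it and attached biotin, per the labels' protocols. The base of the logarithm was read from the values, and the background correction, normalization and summarisation are not given in the sources used here. Of 41345 probe sets 23521 have 1 symbol, and the brightest per gene gave 22180 genes. All arrays entered the fit, and dim probe sets were kept, so low values may hold mostly background. Differences (ErbB4-/- minus control) were tested with limma 3.58.1 (R 4.3.3; lmFit and eBayes, two-sided), adjusted by Benjamini-Hochberg over 22180 genes at a threshold of 0.05. A permutation test of 3 against 3 arrays cannot go below p = 0.10, and was not used. The number of arrays limits the precision, with a median standard error of 0.10 over all genes. Over the 32 members it was 0.138, above their median absolute difference of 0.126.

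The members and lists were chosen with earlier results of these data known. All 35 members are described, with every array's value for the 6 largest absolute differences and for Isg15, Stat2, Irf7, Irf9, Ifnar1 and Ifnar2; those of Ifit3 and Mx1 were added after their values were seen. Of the pathway list those that pass and the 5 with the smallest unadjusted p are named, and any other gene named there was chosen after its values were seen. Motifs were searched in RefSeq promoter windows (GRCm38.p6). Alternatives were renormalization, centring, other probe set rules, other priors, array weights, the replicate block, the week, and leaving out arrays.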

Additional observations from a re-analysis of the deposited data

How the results depend on the processing

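No member and no pathway gene passed under any of the alternatives run (limma). The median member difference was 0.06 in the main setting, 0.07 after quantile normalization again, 0.04 with array weights, and 0.06 with the replicate block. Same-numbered mice showed no shared deviation (correlations of -0.102, 0.034 and -0.05), and the main fit treats them as unpaired. Whether the numbers stand for a pairing of mice cannot be read from these values. Leaving out 1 array gave a median of 0.02 (without ErbB4-/- replicate 3) to 0.11 (without ErbB4-/- replicate 1). With the week as a covariate, which follows the genotype, it was 0.03 and 12 of 32 members turned their sign, among them Mx2, Ifi27, Tmem173 and Ifit3; other settings turned 0 to 4. Members without overlap numbered 0 in the main setting, 2 after quantile normalization again (Ifnar2 and Tmem173, against 14.4% of all genes), 1 with arrays centred (Tmem173, against 11.4%) and 0 to 4 of 32 leaving out 1 array, where the share of all genes was 14.9% to 18.5%; the 4 members each without ErbB4-/- replicate 2 and without control replicate 2 are 12.5%, against 18.5% and 16.5%. Members at an unadjusted p under 0.05 (limma) numbered 0 to 1 of 32 leaving out 1 array. They were Irf8 without ErbB4-/- replicate 2, against 6.09% of all genes, and Ifi27 without control replicate 2, against 5.37%. The single gene that passed over the whole table, no member, was lost (0 genes) with every probe set tested, the replicate block, the week, a threshold of 0.01, leaving out any 1 array (0 to 0 genes), and leaving out ErbB4-/- replicate 3 together with control replicate 1. A planned change of pseudocount had no use on log2 values. Repeated values and 3 arrays per group limit what the fit can resolve.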

Other observations

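The shared and second probe sets are given as values. The probe set that reads both Oas1a and Oas1g had log2 values of 4.49, 4.61 and 4.88 in ErbB4-/- and 4.99, 4.48 and 4.86 in control replicates 1 to 3, and that of Ifi27l2a and Ifi27l2b had 5.13, 5.15 and 5.21 against 5.13, 5.19 and 5.13. A dimmer probe set of Irf8 measured 4.25, 4.25 and 3.95 in ErbB4-/- and 4.25, 4.19 and 4.25 in control liver, with its lowest value in ErbB4-/- replicate 3, as on the brighter one. The second probe set of Ifi35 measured 5.53, 5.48 and 5.35 in ErbB4-/- and 5.55, 5.66 and 5.66 in control liver, and so ran opposite to the brighter one, which was 0.06 higher in ErbB4-/- liver.

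The 4 measured relatives of the Oas and Ifit members in the pathway list did not all share 1 order of mice. Control replicate 3 was lowest for Oas1b, Ifit3b and Oas1g. ErbB4-/- replicate 3 was highest for Oas1b and Ifit3b, ErbB4-/- replicate 1 for Oas1g and control replicate 2 for Ifit1bl1. Oas1b, a synthetase-like flavivirus resistance gene, measured 5.40, 5.48 and 6.20 in ErbB4-/- and 5.12, 5.40 and 5.12 in control replicates 1 to 3. Ifit3b measured 3.25, 3.83 and 3.84 in ErbB4-/- and 3.25, 3.38 and 2.83 in control liver, a low signal. Oas1g measured 5.96, 5.13 and 5.88 in ErbB4-/- and 5.27, 5.56 and 5.02 in control liver. Ifit1bl1 measured 3.38, 3.52 and 2.56 in ErbB4-/- and 3.37, 4.51 and 3.37 in control liver, with its lowest value in ErbB4-/- replicate 3 and a difference of -0.60. None passed (limma, adjusted p = 0.76), and their paralogs are close in sequence, so the source of the signal is uncertain.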
